A study of Mus musculus with 21 samples.

Results

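The BCL-2 family decides whether the outer membrane of the mitochondrion stays closed or is opened in apoptosis. The 10 members described here were named by symbol: the guardians Bcl2, Bcl2l1 and Mcl1, the effectors Bax and Bak1, and the BH3-only genes Bid, Bcl2l11, Bbc3, Pmaip1 and Bmf. All 10 were found among the 35550 genes listed for each cell line experiment, and 4 of the 10 (Bcl2l1, Bbc3, Pmaip1 and Bmf) among the 5298 genes listed for liver. The other 6 were not analysed in liver. All 10 passed the filter of a mean of at least 1 TPM in both cell line experiments.

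The effectors form pores in the outer mitochondrial membrane that release cytochrome c, and the guardians bind and hold both the effectors and the activating BH3-only proteins. BH3-only proteins are the sensors of the family: they are raised, cleaved or released by stress, withdrawal of growth factors, damaged DNA or death receptors, and they either occupy the guardians or activate the effectors. In macrophages, bacterial stimuli are known to raise guardian transcripts through NF-kB, and Bcl2l11 controls the survival of myeloid cells.

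The series measured RNA of mouse liver and of RAW264.7, an established macrophage-like line from mouse, in 21 libraries, in TPM, the share of transcripts corrected for their length. Its title names transglutaminase 2 (TG2, the product of Tgm2) and vimentin (Vim) in macrophage activation in sepsis. In the 24 h experiment wild-type (WT) RAW264.7 cells received PBS, LPS at 1 µg/mL, or LPS at 1 µg/mL with CTM at 0.5 mM, with 2 libraries per group. In the 12 h experiment WT and Vim-KO RAW264.7 cells each received PBS or LPS at 1 µg/mL, again with 2 libraries per group. LPS is a bacterial cell wall product that macrophages sense through TLR4, and CTM is named as in the labels. Whether the Vim-KO cells are 1 clone, and how the gene was disrupted, is not given in the sources used here. The liver set has 1 library for each of 7 groups of C57BL/6J mice. WT mice received PBS, LPS at 30 mg/kg, or LPS at 30 mg/kg with CTM at 100 mg/kg. Another pair of WT libraries is from LPS with or without depletion of liver macrophages, for which the labels give no dose. TG2-KO mice received PBS or LPS at 30 mg/kg, and the labels give PBS, LPS and CTM as intraperitoneal. Age, sex and time after injection are not given in the sources used here, nor is the method of depletion, the extent of the TG2 deletion or the number of mice behind a library.

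In the 12 h experiment Vim read 1877 to 1930 TPM in WT PBS, 1375 to 1461 TPM in WT LPS, 17.0 to 18.7 TPM in Vim-KO PBS and 30.8 to 33.0 TPM in Vim-KO LPS libraries. Tgm2 in liver read 35.7 TPM in WT PBS and 424.8 TPM in WT LPS, against 0.74 and 15.5 TPM in TG2-KO PBS and LPS. All 7 of 7 macrophage markers were at 1 TPM or more in each cell line group, with a summed level of 7873 to 16334 TPM. At 12 h this sum was 16271.5 to 16334 TPM in WT PBS and 7873 to 8025 TPM in Vim-KO PBS. With LPS it was 9493 to 9997 TPM in WT and 8496 to 8820 TPM in Vim-KO cells. The sum of 6 neutrophil markers was 895 to 910.4 TPM in WT LPS against 13.3 to 14.0 TPM in Vim-KO LPS, with Ly6g and Retnlg at 0 in both. Only 2 of these 6 genes were at 1 TPM or more in WT LPS and 1 of 6 in Vim-KO LPS, so the sums rest on few genes. The part of these marker differences in the results below was not tested. Nothing in the labels tells separate cultures from repeat preparations, so each p-value rests on the spread of 2 libraries per group, which may be technical. The depth of each library is unknown, since TPM keep no read counts.

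On the GRCm38 build, Bcl2l1 (152780668 to 152831728), Bcl2l11 (128126038 to 128162547) and Bmf (118528757 to 118549687) lie on chromosome 2, and Bax (45461697 to 45466898) and Bbc3 (16308393 to 16318205) on chromosome 7. Bcl2 lies on chromosome 1 (106538178 to 106714274), Mcl1 on chromosome 3 (95658788 to 95663176), Bid on chromosome 6 (120891930 to 120916853) and Bak1 on chromosome 17 (27019810 to 27029009). All 10 are protein-coding. Bid overlaps Bcl2l13 on the opposite strand over 913 bases, Bak1 lies wholly within the span of Ggnbp1 on the opposite strand, and Bax overlaps Gm45808 on the same strand over 915 bases. The library kit keeps strand, but whether the quantification used it is not given in the sources used here, so reads of these pairs may have been shared. Mean levels of the neighbours were 38.0 TPM (Bcl2l13), 3.90 TPM (Ggnbp1) and 5.59 TPM (Gm45808) at 24 h.

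Promoter sequence of RefSeq (GRCm38.p6, from 250 bases before the start site to 50 bases from it on) was matched for 9 of the 10 members, and Pmaip1 had no match. The windows of 3 members are shown because Bmf had the widest range of group means at 24 h, Bcl2l11 the widest at 12 h, and Bcl2l1 the largest rise with LPS at 24 h. They lie at chr2:118549637-118549936 on the minus strand (Bmf, 55.3% G and C), chr2:128125788-128126087 on the plus strand (Bcl2l11, 71% G and C) and chr2:152831679-152831978 on the minus strand (Bcl2l1, 52.3% G and C). Each is read 5′ to 3′ along its gene, and capitals mark matches to GGGCGG, the GC box, or GTAAACA, the forkhead core, on either strand.
Bmf: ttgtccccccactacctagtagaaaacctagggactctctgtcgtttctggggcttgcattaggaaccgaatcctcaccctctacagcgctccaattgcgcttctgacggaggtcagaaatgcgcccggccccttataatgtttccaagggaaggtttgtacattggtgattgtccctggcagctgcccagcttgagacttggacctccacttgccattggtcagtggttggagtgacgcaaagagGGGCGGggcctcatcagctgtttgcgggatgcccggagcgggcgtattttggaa
Bcl2l11: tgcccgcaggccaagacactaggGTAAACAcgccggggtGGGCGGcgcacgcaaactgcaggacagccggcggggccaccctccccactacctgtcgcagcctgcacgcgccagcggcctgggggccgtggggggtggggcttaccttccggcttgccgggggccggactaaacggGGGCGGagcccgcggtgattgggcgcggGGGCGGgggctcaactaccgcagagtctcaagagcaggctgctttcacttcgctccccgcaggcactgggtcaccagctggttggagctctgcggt
Bcl2l1: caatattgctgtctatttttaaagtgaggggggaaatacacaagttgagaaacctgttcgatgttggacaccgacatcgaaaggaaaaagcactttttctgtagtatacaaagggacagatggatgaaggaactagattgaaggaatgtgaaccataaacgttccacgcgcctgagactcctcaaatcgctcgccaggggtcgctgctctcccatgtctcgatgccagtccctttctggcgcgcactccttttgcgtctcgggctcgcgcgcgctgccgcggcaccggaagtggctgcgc
The forkhead core, the motif read by FOXO factors, stood in the Bcl2l11 window from 227 to 221 bases before the start site, and in no other member window. Over all 32851 RefSeq windows of this length 3.65% held it. The GC box was in 7 of the 9 member windows (all but Bcl2l1 and Bak1) and in 35.7% of all windows. A 10-base NF-kB consensus was in the Bbc3 window alone among the 9, against 4.51% of all windows, and a 10-base p53 half-site consensus in the Bax window alone, against 8.36%. The cAMP response element TGACGTCA (1.79% of all windows) and the TATA box TATAAA (13.6%) were in none of the 9. Motifs were searched on both strands, and matches of different motifs did not exclude each other. These are letter matches in 1 annotated window per gene and say nothing on binding.

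Per length, the same transcripts led the family in every cell line group. Bax was the most abundant member in all 7 groups, with group means from 323 ± 6.89 TPM (SD, n = 2, WT PBS, 24 h) to 608 ± 25.01 TPM (Vim-KO LPS, 12 h). Mcl1, a short-lived guardian, was second in all 7, from 193 ± 8.87 TPM (Vim-KO PBS) to 428 ± 27.7 TPM (WT LPS, 24 h). Next came Bak1 in the 3 PBS groups and Bcl2l1 in the 4 groups that received LPS. Bcl2 or Bmf was the lowest member except in Vim-KO PBS, where Pmaip1 was lowest at 3.29 ± 0.294 TPM, below Bcl2 at 6.10 ± 0.249 TPM. Neighbours in each group's order did not overlap between libraries.

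The sum of the 10 members was 928 and 947 TPM in the PBS libraries at 24 h, 1595 and 1615 TPM under LPS, and 1340.3 and 1339 TPM when CTM was added. Guardians made up 33.3% and 33.6% of that sum with PBS, 44.4% and 41.6% with LPS, and 37.3% and 35.0% with LPS plus CTM. BH3-only transcripts made up 16.5% and 16.2%, 13.0% and 13.7%, and 10.7% and 10.6% in the same order. Thus the guardian share stood highest with LPS and the BH3-only share lowest with LPS plus CTM, with no overlap between groups. At 12 h guardians made up 26.7% and 26.3% in WT PBS, 39.2% and 40.6% in WT LPS, 28.0% and 27.2% in Vim-KO PBS, and 39.2% and 35.4% in Vim-KO LPS. BH3-only transcripts made up 15.0% and 14.6%, 13.0% and 13.1%, 13.6% and 13.3%, and 15.8% and 14.8% in the same order. The BH3-only share was thus lower with LPS in WT cells and higher with LPS in Vim-KO cells. These shares cover the 10 members alone, without other guardians such as Bcl2a1b and Bcl2a1d. They are descriptions of transcript sums, and were not tested.

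**Figure D1:**
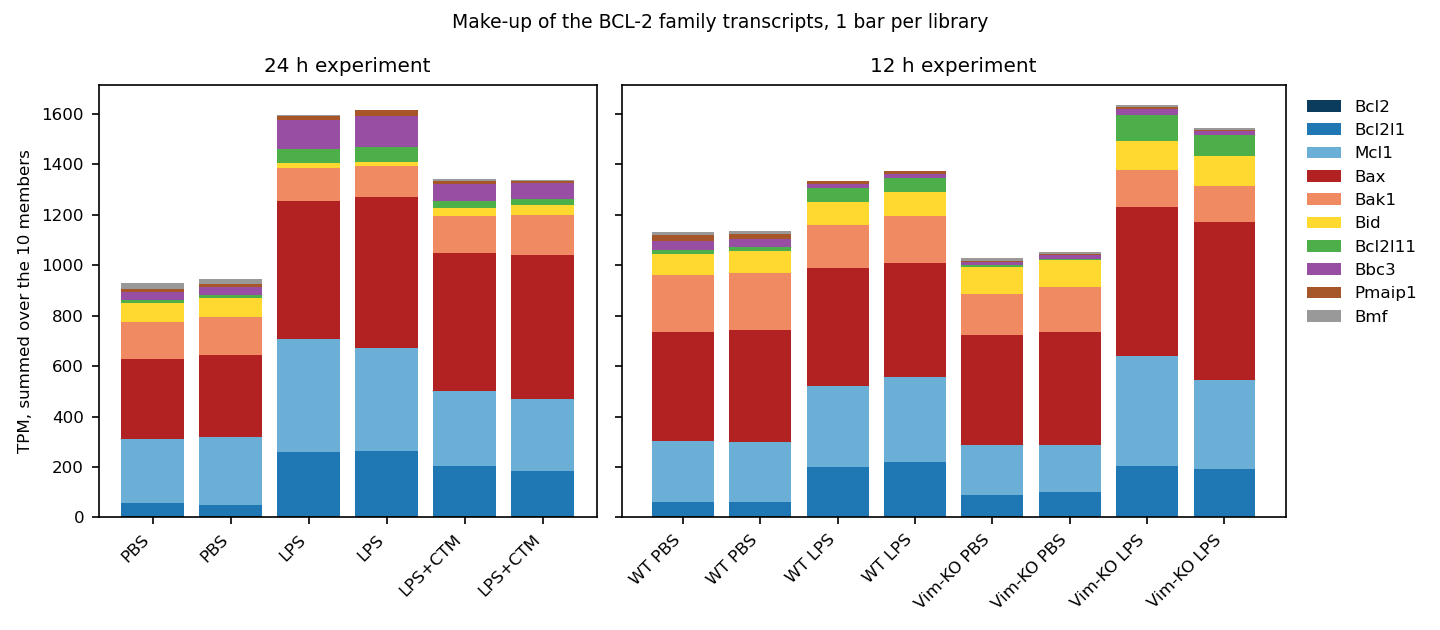
Stacked TPM of the 10 members in each cell line library (1 bar per library, colours are genes, left 24 h and right 12 h). Bax, Mcl1, Bak1 and Bcl2l1 fill most of each bar, and the Bcl2l1 segment is taller in every library with LPS.

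The first comparison asked what 24 h of LPS did to the family in WT cells. Bcl2l1 rose most (log2 change 2.39) and Bmf fell most (-3.29), and 9 of the 10 members passed the threshold, 6 higher and 3 lower. Of all 11030 genes tested 66% passed, 20.9% higher and 45.1% lower, so the count of members that changed in either direction is not far from the background. By size, 6 members passed with a log2 change of at least 1, against 20.8% of all genes. The median change was 0.77 over the members and -0.23 over all genes. Scaling the libraries by median ratios lifts all 24 h LPS changes by about 0.24 and moves the share of higher genes among those called from 31.6% to 50.3%. Under that scaling 6 members were higher and 2 lower. Changes are differences of log2(TPM + 1), which understates those of low genes, given ± SE with the Benjamini-Hochberg adjusted p of limma over all genes tested.

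Among the guardians, Bcl2l1, which encodes BCL-XL, read 51.7 and 45.3 TPM in the PBS libraries against 256 and 260.3 TPM with LPS. The 2 LPS libraries stood far above both PBS libraries, and the change was 2.39 ± 0.080 (limma, adjusted p = 7.35e-07). Mcl1 read 253 and 268 TPM in the PBS libraries against 447 and 408 TPM with LPS, again without overlap (0.71 ± 0.062, adjusted p = 5.88e-05). Bcl2, the founding guardian, was low: it read 4.52 and 4.801 TPM in the PBS libraries against 4.32 and 4.26 TPM with LPS. Its difference did not pass (-0.10 ± 0.144, adjusted p = 0.573), and its sign turned under median-of-ratios scaling (0.11).

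Bax read 318 and 327 TPM in the PBS libraries against 547 and 599 TPM with LPS, and both LPS libraries were above both PBS libraries (0.82 ± 0.057, adjusted p = 1.95e-05). Bak1, its partner effector, read 148 TPM in both PBS libraries and 133 and 123 TPM with LPS. That small fall (-0.21 ± 0.062, adjusted p = 0.0197) turned sign under median-of-ratios scaling (0.039) and did not pass without the mean-variance trend or without either PBS library or the LPS library 3 (adjusted p = 0.0629 to 0.0810). Of the effectors, then, the rise of Bax alone passed in all 10 alternatives.

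The BH3-only genes moved in both directions. Bcl2l11, which encodes BIM, a binder of all guardians, read 11.6 and 14.9 TPM in the PBS libraries against 53.9 and 58.0 TPM with LPS (2.01 ± 0.127, adjusted p = 1.31e-05). Bbc3, which encodes the p53 target PUMA, read 35.0 and 32.1 TPM in the PBS libraries against 114 and 122 TPM with LPS (1.78 ± 0.076, adjusted p = 2.23e-06). Pmaip1, which encodes NOXA, a selective binder of MCL-1, read 10.4 and 10.1 TPM in the PBS libraries against 19.1 and 24.2 TPM with LPS (1.00 ± 0.159, adjusted p = 1.14e-03). In each of these 3 genes both LPS libraries stood above both PBS libraries. Bid, the link from caspase-8 to the mitochondrion, read 73.9 and 75.2 TPM in the PBS libraries against 19.0 and 16.2 TPM with LPS (-2.03 ± 0.120, adjusted p = 9.58e-06). Bmf, whose protein is held at the cytoskeleton until released, read 22.2 and 21.6 TPM in the PBS libraries against only 1.51 and 1.18 TPM with LPS (-3.29 ± 0.140, adjusted p = 2.22e-06). For Bid and Bmf both LPS libraries lay far below both PBS libraries.

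**Figure D2:**
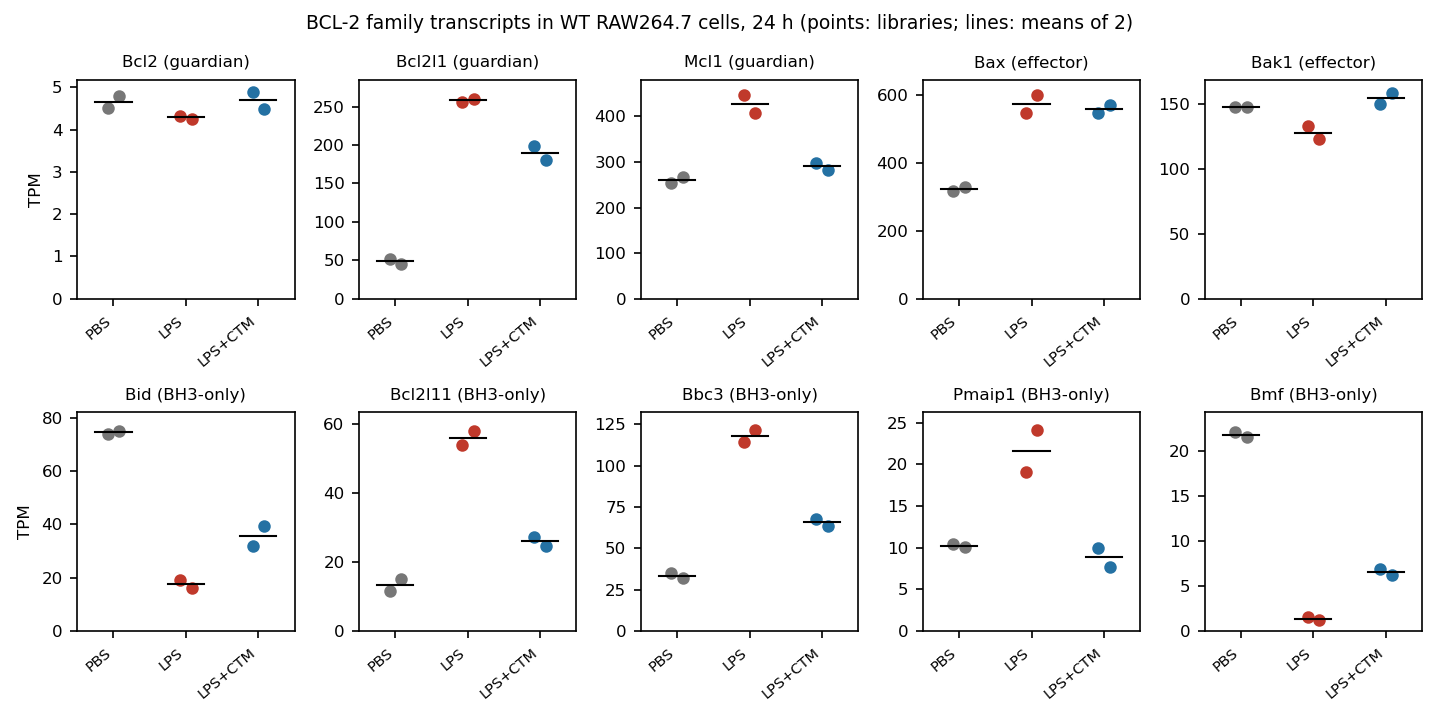
TPM of each member in the 24 h experiment (points are libraries, lines are means of 2, each panel has its own linear axis from 0). Bcl2l1, Bcl2l11 and Bbc3 are highest with LPS, Bid and Bmf lowest, and LPS plus CTM lies between PBS and LPS for these 5 genes.

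CTM was then compared with LPS alone at 24 h. With CTM, 8 of 10 members passed, 3 higher and 5 lower, against 25.6% of all genes (16.1% higher and 9.45% lower). Bmf was the member with the largest difference (1.70) and Pmaip1 the one with the largest fall (-1.20). A log2 difference of at least 1 was passed by 3 members (Bmf, Pmaip1 and Bcl2l11) and by 2.3% of all genes. The median difference was -0.24 over the members and 0.07 over all genes. Median-of-ratios scaling moves the higher share of all called genes from 63.1% to 44.9%, and leaves 2 members higher and 5 lower. This comparison and the previous one share the LPS libraries, so their values are set side by side and their likeness is not read as a result.

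Bcl2l1 read 199 and 181 TPM with CTM, under both LPS libraries (-0.45 ± 0.080, adjusted p = 8.12e-03), and this fall did not pass without the CTM library 3 (adjusted p = 0.0613). Mcl1 read 297 and 283 TPM, also under both LPS libraries (-0.56 ± 0.062, adjusted p = 1.50e-03). Bcl2 at 4.89 and 4.49 TPM did not pass (0.10 ± 0.144, adjusted p = 0.629). Both guardians with high levels were thus lower with CTM than with LPS alone, while Bax at 546 and 571 TPM overlapped the LPS libraries (-0.03 ± 0.057, adjusted p = 0.687). Bak1 at 150.04 and 159 TPM was above both LPS libraries (0.27 ± 0.062, adjusted p = 0.0192), a call that was lost in 5 of 11 alternatives, median-of-ratios scaling among them (adjusted p = 0.0512).

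Bcl2l11 read 27.3 and 24.6 TPM with CTM (-1.08 ± 0.127, adjusted p = 1.82e-03), Bbc3 67.5 and 63.8 TPM (-0.84 ± 0.076, adjusted p = 7.54e-04) and Pmaip1 9.99 and 7.69 TPM (-1.20 ± 0.159, adjusted p = 2.79e-03). All 3 were below both LPS libraries. Bid read 31.8 and 39.2 TPM (0.97 ± 0.120, adjusted p = 2.13e-03) and Bmf 6.95 and 6.27 TPM (1.70 ± 0.140, adjusted p = 5.53e-04), above both LPS libraries. No BH3-only gene overlapped between LPS plus CTM and LPS alone. The share of all genes without such overlap was not counted, so this is not read as a result on the family.

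Against PBS, 6 members passed with LPS plus CTM in the model over all 3 groups, 4 higher and 2 lower, beside 52.9% of all genes (17.4% higher and 35.5% lower). Median-of-ratios scaling moves the higher share of called genes from 32.9% to 52.2% and gives 6 members higher and 2 lower. Bcl2l1 (1.95 ± 0.080, adjusted p = 3.51e-06), Bax (0.79 ± 0.057, adjusted p = 4.67e-05), Bbc3 (0.95 ± 0.076, adjusted p = 8.08e-05) and Bcl2l11 (0.92 ± 0.127, adjusted p = 9.82e-04) were above PBS. Bmf (-1.59 ± 0.140, adjusted p = 1.26e-04) and Bid (-1.06 ± 0.120, adjusted p = 4.03e-04) were below PBS. Mcl1 (0.16 ± 0.062, adjusted p = 0.0699), Pmaip1 (-0.20 ± 0.159, adjusted p = 0.32), Bak1 (0.06 ± 0.062, adjusted p = 0.438) and Bcl2 (0.01 ± 0.144, adjusted p = 0.97) did not pass. Under the scaling Mcl1 (0.32) and Bak1 (0.23) passed as higher, and Mcl1 also passed in a fit of the PBS and CTM libraries alone (0.16, adjusted p = 0.0425).

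**Figure D3:**
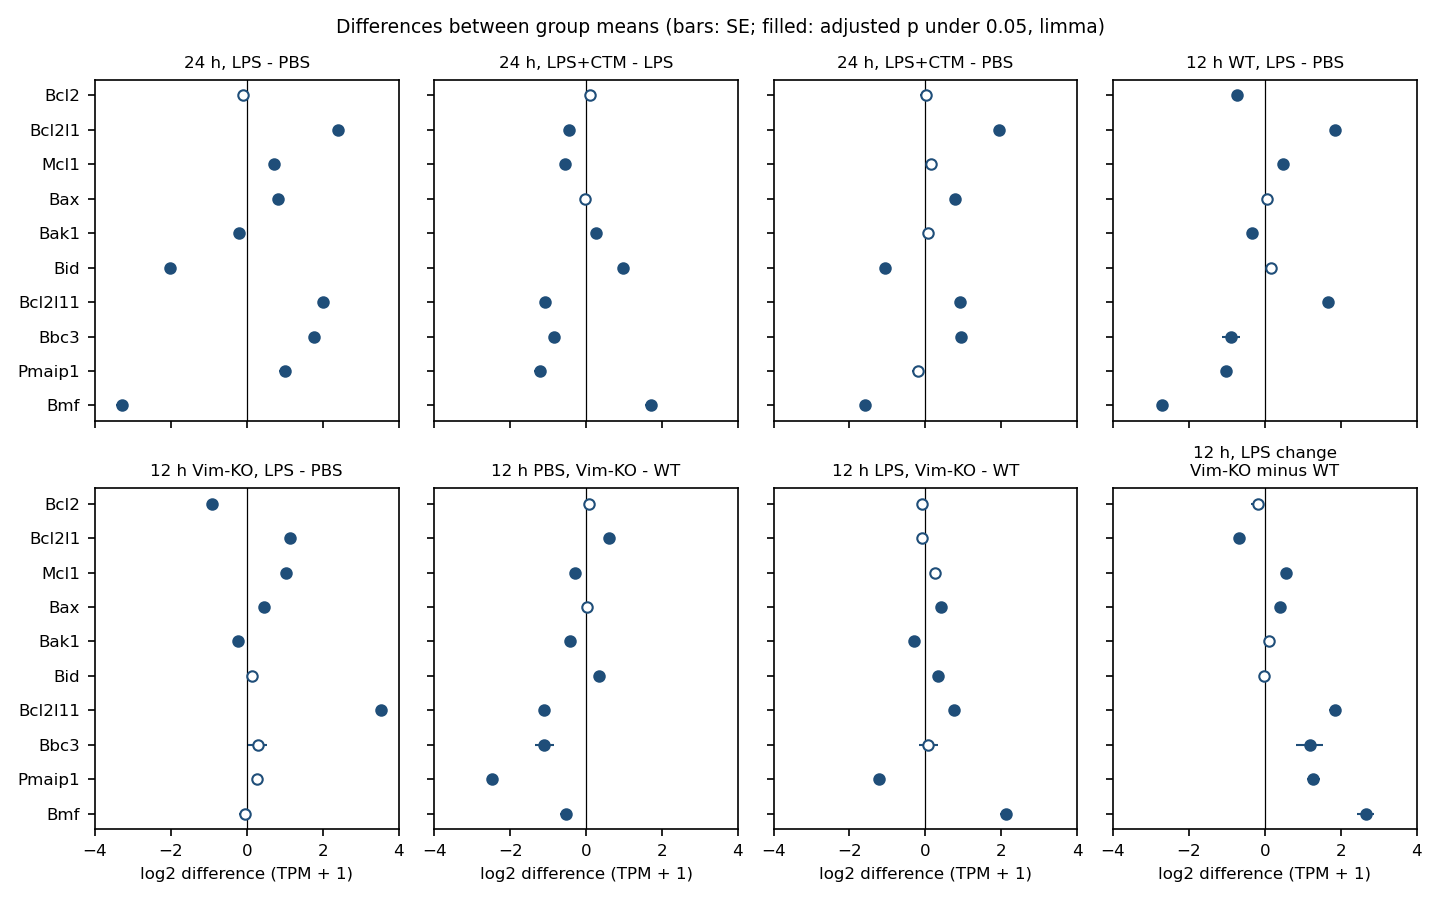
Differences of group means on the log2(TPM + 1) scale for the 10 members in the 8 comparisons (points with SE bars, filled where the limma adjusted p is under 0.05). Bmf spans from -3.29 with LPS at 24 h to 2.65 in the difference between genotypes, and Bcl2l11 reaches 3.53 with LPS in Vim-KO cells.

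At 12 h the LPS response was measured in WT and Vim-KO cells side by side. In WT cells 8 of 10 members passed, 3 higher and 5 lower, beside 70.9% of all 11115 genes (17.8% higher and 53.1% lower). In Vim-KO cells 6 passed, 4 higher and 2 lower, beside 66.4% of all genes (20.5% higher and 45.8% lower). Neither count stands out from its background. With a log2 change of at least 1 there were 4 members in WT (24.4% of all genes) and 3 in Vim-KO cells (22% of all genes). Median-of-ratios scaling moves the share of higher genes among those called from 25.2% to 50.3% in WT and from 31.0% to 50.4% in Vim-KO cells. It gives 5 members higher and 3 lower in WT cells, and 6 higher and 1 lower in Vim-KO cells. It lifts the LPS changes by about 0.36 in WT and 0.25 in Vim-KO cells.

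The difference between genotypes in the LPS response was tested itself, as the LPS change of Vim-KO cells less that of WT cells. For 7 members it passed, 6 higher and 1 lower, beside 20.6% of all genes (13.7% higher and 6.96% lower). At a difference of at least 1 there were 4 members (Bmf, Bcl2l11, Pmaip1 and Bbc3), beside 6.39% of all genes. The median was 0.47 over the members and 0.09 over all genes. Median-of-ratios scaling moves the higher share of called genes from 66.2% to 47.7% and gives 4 members higher and 1 lower. Bmf, Bcl2l11, Pmaip1 and Bcl2l1 passed in all 14 alternatives run for each. Calls were lost in 3 of 14 for Bax, in 7 of 14 for Mcl1 and in 10 of 14 for Bbc3, and without the WT PBS library 2 or the Vim-KO PBS library 1 only 4 members passed.

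Bmf fell with LPS in WT cells, and no such change passed in Vim-KO cells. In WT cells it read 13.6 and 12.4 TPM in the PBS libraries against 0.919 and 1.42 TPM with LPS (-2.70 ± 0.153, adjusted p = 2.09e-06). In Vim-KO cells it read 9.22 and 8.25 TPM in the PBS libraries against 9.30 and 7.63 TPM with LPS, and these groups overlapped (-0.04 ± 0.153, adjusted p = 0.814). Here the sign of the small Vim-KO value changes under scaling (0.19), but the difference between genotypes was 2.65 ± 0.216 (adjusted p = 1.56e-04) and ranged from 2.48 to 3.34 over the alternatives. Under LPS, Bmf stood 2.13 ± 0.153 above WT (adjusted p = 2.86e-05), with both Vim-KO libraries above both WT libraries. With PBS it was 0.52 lower in Vim-KO cells by the fitted value (-0.52 ± 0.153, adjusted p = 0.0255), a call lost in 6 of 11 alternatives.

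Bcl2l11 responded more in Vim-KO cells. It read 16.5 and 16.9 TPM in WT PBS, 54.3 and 57.1 TPM in WT LPS, 7.92 and 6.54 TPM in Vim-KO PBS, and 102 and 86.0 TPM in Vim-KO LPS. The 4 groups do not overlap: Vim-KO cells were lowest with PBS and highest with LPS. The LPS change was 1.68 ± 0.112 in WT (adjusted p = 5.19e-06) and 3.53 ± 0.112 in Vim-KO cells (adjusted p = 1.15e-07), and they differed by 1.86 ± 0.159 (adjusted p = 1.98e-04). Between genotypes Bcl2l11 differed by -1.11 ± 0.112 with PBS (adjusted p = 1.53e-04) and by 0.74 ± 0.112 with LPS (adjusted p = 1.23e-03).

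Pmaip1 was low in Vim-KO cells under both conditions. It read 24.5 and 21.7 TPM in WT PBS and 10.8 and 11.02 TPM in WT LPS, against 3.49 and 3.08 TPM in Vim-KO PBS and 4.46 and 3.80 TPM in Vim-KO LPS. All 4 Vim-KO libraries were below all 4 WT libraries. The genotypes differed by -2.49 ± 0.118 with PBS (adjusted p = 2.97e-06) and by -1.21 ± 0.118 with LPS (adjusted p = 1.32e-04). LPS lowered Pmaip1 in WT cells (-1.02 ± 0.118, adjusted p = 1.13e-04) and did not pass in Vim-KO cells (0.26 ± 0.118, adjusted p = 0.0861), where it passed under scaling (0.46). The difference of the responses was 1.28 ± 0.167 (adjusted p = 1.66e-03).

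**Figure D4:**
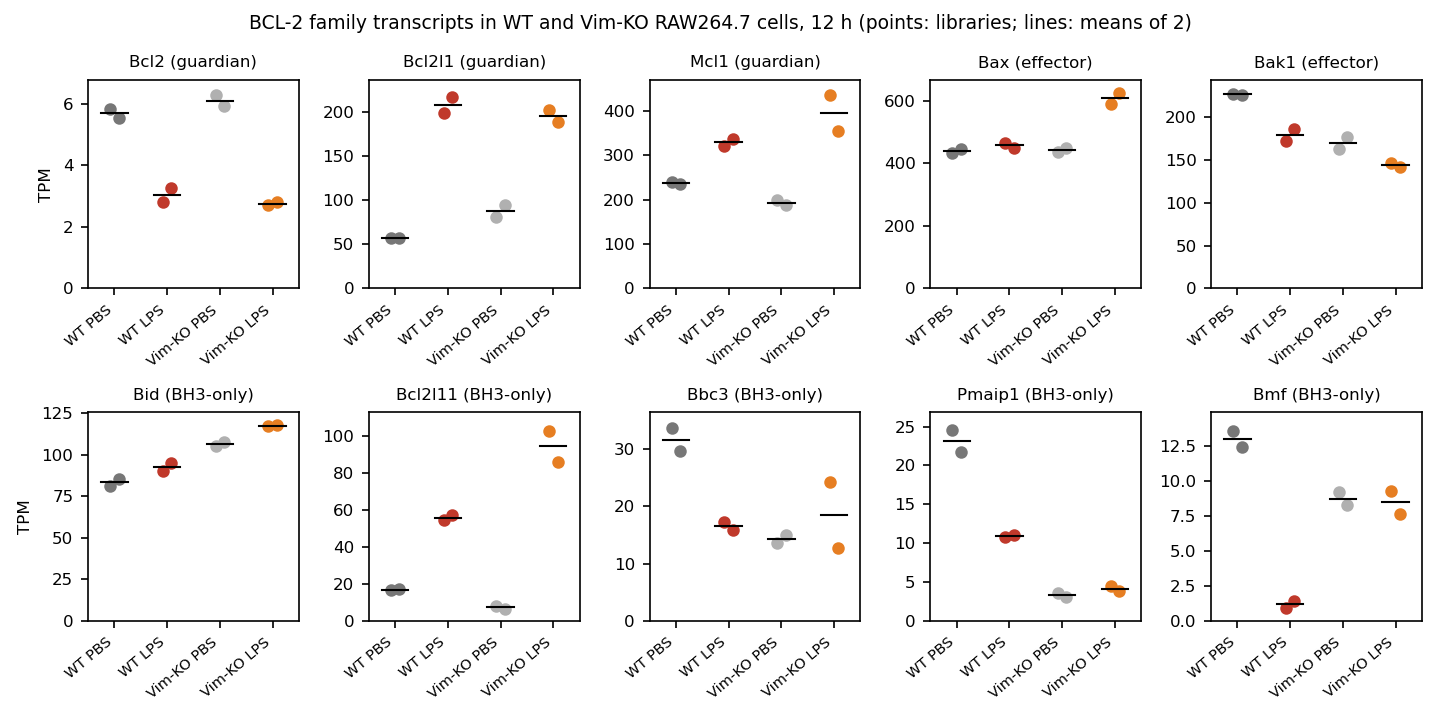
TPM of each member in the 12 h experiment (points are libraries, lines are means of 2, each panel has its own linear axis from 0). Bmf falls to 0.919 and 1.42 TPM in WT LPS only, Bcl2l11 peaks in Vim-KO LPS, and Pmaip1 is below 5 TPM in all Vim-KO libraries.

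Bbc3 was the noisiest member at 12 h. It read 33.7 and 29.6 TPM in WT PBS, 17.3 and 15.9 TPM in WT LPS, 13.5 and 15.0 TPM in Vim-KO PBS, and 24.3 and 12.6 TPM in Vim-KO LPS. The WT PBS libraries were above all others, and the 2 Vim-KO LPS libraries lay on either side of the WT LPS pair. LPS lowered it in WT cells (-0.89 ± 0.246, adjusted p = 0.0117), a call lost under scaling (adjusted p = 0.0844) and without the WT PBS library 1 (0.0670) or the WT LPS library 2 (0.0569). It did not pass in Vim-KO cells (0.29 ± 0.246, adjusted p = 0.33), where without the Vim-KO LPS library 1 the value is -0.16 and without library 2 it is 0.73, which passed (adjusted p = 1.49e-03). Between genotypes with LPS it did not pass (0.08 ± 0.246, adjusted p = 0.82). That value was -0.37 (adjusted p = 0.0481) without the Vim-KO LPS library 1 and 0.52 (adjusted p = 0.0126) without library 2, so its direction rests on 1 library. With PBS it was lower in Vim-KO than in WT cells (-1.10 ± 0.246, adjusted p = 8.44e-03), a call lost without the WT PBS library 1 (0.0571) or the Vim-KO PBS library 1 (0.0529). The difference of the responses (1.18 ± 0.348, adjusted p = 0.0484) was 0.73 without the Vim-KO LPS library 1 and 1.62 without library 2. Bid, the remaining BH3-only gene, read 81.4 and 85.6 TPM in WT PBS, 90.5 and 95.2 TPM in WT LPS, 105 and 107 TPM in Vim-KO PBS, and 117 and 118 TPM in Vim-KO LPS. The groups do not overlap, and Vim-KO cells had more with PBS (0.35 ± 0.060, adjusted p = 2.48e-03) and with LPS (0.34 ± 0.060, adjusted p = 2.75e-03). The LPS changes of Bid were 0.15 in WT (adjusted p = 0.0517) and 0.14 in Vim-KO cells (adjusted p = 0.0674). They passed under scaling (0.52 and 0.40), and the responses differed by -0.01 ± 0.085 (adjusted p = 0.955).

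Of the guardians, Bcl2l1 read 57.2 and 57.3 TPM in WT PBS, 199 and 217 TPM in WT LPS, 81.4 and 94.0 TPM in Vim-KO PBS, and 202 and 188 TPM in Vim-KO LPS. Vim-KO cells thus had more with PBS (0.60 ± 0.085, adjusted p = 8.68e-04), while with LPS the genotypes overlapped (-0.09 ± 0.085, adjusted p = 0.429). LPS raised it by 1.84 ± 0.085 in WT (adjusted p = 7.16e-07) and by 1.15 ± 0.085 in Vim-KO cells (adjusted p = 9.24e-06), a difference of -0.69 ± 0.120 (adjusted p = 6.36e-03). Mcl1 read 239 and 236 TPM in WT PBS, 321 and 338 TPM in WT LPS, 199 and 187 TPM in Vim-KO PBS, and 435 and 355 TPM in Vim-KO LPS. Its 4 groups do not overlap, with Vim-KO cells lowest with PBS and highest with LPS. LPS raised Mcl1 in WT (0.47 ± 0.094, adjusted p = 2.33e-03) and in Vim-KO cells (1.02 ± 0.094, adjusted p = 3.21e-05). The responses differed by 0.55 ± 0.133 (adjusted p = 0.0237). With PBS the genotypes differed by -0.30 (adjusted p = 0.0348), a call lost when any 1 of the 4 PBS libraries was left out, and with LPS by 0.25 (adjusted p = 0.0579), which passed without the Vim-KO LPS library 2 (0.40, adjusted p = 3.52e-03).

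Bcl2 read 5.84 and 5.54 TPM in WT PBS, 2.80 and 3.27 TPM in WT LPS, 6.27 and 5.92 TPM in Vim-KO PBS, and 2.70 and 2.80 TPM in Vim-KO LPS. LPS lowered it in WT (-0.73 ± 0.121, adjusted p = 8.30e-04) and in Vim-KO cells (-0.92 ± 0.121, adjusted p = 2.50e-04), and the responses differed by -0.19 ± 0.171 (adjusted p = 0.481). Among the effectors, Bax read 433 and 446 TPM in WT PBS, 467 and 449 TPM in WT LPS, 437 and 449 TPM in Vim-KO PBS, and 591 and 626 TPM in Vim-KO LPS. The Vim-KO LPS libraries stood above the other 6, and LPS raised Bax in Vim-KO cells (0.46 ± 0.057, adjusted p = 1.86e-04). In WT cells its LPS difference of 0.06 ± 0.057 did not pass (adjusted p = 0.372), but did under scaling (0.43). The responses differed by 0.40 ± 0.080 (adjusted p = 0.0125), which scaling took to 0.28 (adjusted p = 0.0742). Bak1 read 228 and 226 TPM in WT PBS, 172 and 186 TPM in WT LPS, 163 and 176 TPM in Vim-KO PBS, and 146 and 142 TPM in Vim-KO LPS. It was lower in Vim-KO than in WT cells with PBS (-0.42 ± 0.066, adjusted p = 1.59e-03) and with LPS (-0.31 ± 0.066, adjusted p = 6.40e-03). Its falls with LPS (-0.34 in WT, -0.24 in Vim-KO) were 0.033 and 0.024 under scaling, and the responses differed by 0.10 (adjusted p = 0.473).

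Between genotypes as a whole, 8 members passed with PBS, 2 higher and 6 lower in Vim-KO cells, beside 43% of all genes (17.7% higher and 25.4% lower). Without the WT PBS library 1 or the Vim-KO PBS library 1 that count was 5. With LPS 6 members passed, 4 higher and 2 lower, beside 44.7% of all genes (24.1% higher and 20.6% lower). At a log2 difference of at least 1 there were 3 members with PBS (Pmaip1, Bcl2l11 and Bbc3) and 2 with LPS (Bmf and Pmaip1), beside 8.72% and 8.24% of all genes.

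The 24 h and 12 h experiments were sequenced from RNA extracted on different dates, and time and experiment cannot be told apart. Their WT values with LPS are therefore only set side by side. The log2 difference of Bid was -2.03 at 24 h and 0.15 at 12 h, of which the latter did not pass (adjusted p = 0.0517). For Bbc3 the values were 1.78 and -0.89, of which the latter did not pass under median-of-ratios scaling (-0.53, adjusted p = 0.0844). For Pmaip1 they were 1.00 and -1.02, from WT PBS means of 10.2 TPM at 24 h and 23.1 TPM at 12 h. In contrast Bmf (-3.29 and -2.70), Bcl2l1 (2.39 and 1.84), Bcl2l11 (2.01 and 1.68) and Mcl1 (0.71 and 0.47) had 1 sign in both. So did Bax (0.82 and 0.06), Bak1 (-0.21 and -0.34) and Bcl2 (-0.10 and -0.73), but Bax did not pass at 12 h nor Bcl2 at 24 h. Under median-of-ratios scaling the sign turned for Bak1 in both experiments and for Bcl2 at 24 h. The difference between experiments was not tested.

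Genes around the family were counted from lists chosen by function. Of 15 other BCL-2 family genes 10 were tested at 24 h, and LPS raised 5 and lowered 3, beside 20.9% of all genes higher and 45.1% lower. The largest rise was that of Bcl2a1a (3.11, adjusted p = 2.03e-07), a guardian of the A1 group whose copies Bcl2a1b and Bcl2a1d are near identical, so that reads may be divided among them. With CTM against LPS none of the 10 was higher and 5 were lower (16.1% and 9.45% of all genes), among them the mitophagy receptor Bnip3 (-0.97, adjusted p = 2.25e-03). In Vim-KO PBS Bcl2a1a read 0.398 and 0.168 TPM against 11.9 and 10.8 TPM in WT PBS (-3.27, adjusted p = 2.46e-06). Its copies did not pass there: Bcl2a1b read 61.2 and 61.8 against 51.7 and 53.9 TPM (0.22, adjusted p = 0.202), and Bcl2a1d read 94.7 and 89.99 against 84.8 and 84.7 TPM (0.12, adjusted p = 0.269). In the same libraries Bnip3 read 76.9 and 87.6 against 22.7 and 20.1 TPM (1.90, adjusted p = 2.47e-06). The responses to LPS of 4 of these 10 genes were higher in Vim-KO cells and none lower (13.7% and 6.96% of all genes).

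Downstream, of 15 genes of mitochondrial exit, the apoptosome, caspases and their inhibitors, LPS raised 1 and lowered 6 at 24 h (20.9% and 45.1% of all genes). Casp9, the initiator caspase of the apoptosome, fell by 1.22 (adjusted p = 3.62e-04). At 12 h 4 rose and 8 fell in WT (17.8% and 53.1% of all genes), and 3 rose and 7 fell in Vim-KO cells (20.5% and 45.8%). These counts of falls are near the background. The inhibitor gene Birc3 differed most between genotypes in its LPS response (2.06 ± 0.101, adjusted p = 2.00e-05), reading 72.6 and 72.4 TPM in WT LPS and 85.9 and 85.3 TPM in Vim-KO LPS from 43.9 and 41.3 and from 11.8 and 10.8 TPM with PBS. The median change of this list at 24 h was -0.15, beside -0.23 over all genes.

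Upstream, 3 of 6 genes of the death receptor arm that leads to Bid rose and 1 fell with LPS at 24 h (20.9% and 45.1% of all genes). The receptor Fas read 2.26 and 2.59 TPM in the PBS libraries, 25.5 and 29.3 TPM under LPS, and 15.6 and 14.9 TPM when CTM was added (LPS against PBS 3.05, adjusted p = 1.81e-06). With CTM against LPS 3 of 6 fell and none rose (9.45% and 16.1% of all genes). Of 12 regulators of members, 3 rose and 7 fell with LPS at 24 h, beside the same 20.9% and 45.1%, and under scaling 4 rose and 5 fell. Mdm2, a p53 target that limits p53, read 50.8 and 42.2 TPM in the PBS libraries, 403 and 363 TPM under LPS, and 159 and 135 TPM when CTM was added. At 12 h Mdm2 read 174 and 183 TPM in WT PBS, 219.5 and 212 TPM in WT LPS, 71.9 and 73.0 TPM in Vim-KO PBS, and 304 and 289.6 TPM in Vim-KO LPS, and its LPS response was 1.75 ± 0.082 higher in Vim-KO cells (adjusted p = 1.92e-05). Foxo3, which encodes a forkhead factor known to act on Bcl2l11 and Bbc3, had an LPS response 1.16 ± 0.216 higher in Vim-KO cells (adjusted p = 9.01e-03).

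Genes whose pattern over libraries was most like that of the widest-ranging member were listed as a description. At 24 h Srsf9, Osgep and Fpgs followed Bmf most closely among 8963 genes, with Pearson correlations of 0.9997, 0.9994 and 0.9993 over 6 libraries. At 12 h Helz2, Parp10 and Nfkb1 followed Bcl2l11 among 9051 genes, with correlations of 0.995, 0.994 and 0.993 over 8 libraries. Helz2 read 21.2 and 21.8 TPM in WT PBS, 67.1 and 77.7 TPM in WT LPS, 7.998 and 7.72 TPM in Vim-KO PBS, and 116 and 87.4 TPM in Vim-KO LPS. The libraries share groups, and no test was made of these correlations.

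In liver only 4 members were listed, since the list holds only genes at least 2-fold apart between WT LPS and WT PBS. That contrast therefore chose the members, and its values are given as a description. With 1 library per group there is no replicate check and no test. In whole liver, fewer cells of a type and less RNA per cell cannot be told apart. Bcl2l1 read 15.3 TPM in WT PBS and 118.3 TPM in WT LPS, with 89.4 TPM in LPS plus CTM. It read 84.1 TPM with LPS in the library without depletion and 65.3 TPM in that with depletion, and 13.4 and 81.8 TPM in TG2-KO PBS and LPS. All 5 libraries with LPS were above both PBS libraries. Bmf read 4.06 TPM in WT PBS and 0.44 TPM in WT LPS, 0.66 TPM with CTM, 0.85 and 2.27 TPM without and with depletion, and 0.61 and 0.76 TPM in TG2-KO PBS and LPS. WT PBS was thus the highest and the TG2-KO PBS library already lay near the LPS libraries. Neutrophil markers (5 of 6 listed) summed to 27.9 TPM in TG2-KO PBS and to 1.4 TPM in WT PBS, and their part in this was not tested.

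Bbc3 read 2.81 TPM in WT PBS, 6.09 TPM in WT LPS, 3.17 TPM with CTM, 4.60 and 1.34 TPM without and with depletion, and 0.59 and 4.01 TPM in TG2-KO PBS and LPS. Pmaip1 was listed at 0 in WT PBS and read 1.23 TPM in WT LPS, 0.63 TPM with CTM, 0.98 and 0.08 TPM without and with depletion, and 0.09 and 0.53 TPM in TG2-KO PBS and LPS. Bbc3, Pmaip1 and Bmf were near or under the pseudocount of 1 TPM in several libraries, where a log2 difference depends on it. With a pseudocount of 0.1 TPM the WT LPS difference of Bmf was -2.95 in place of -1.81. Counted at a difference of at least 1 on log2(TPM + 1), 2 members were higher (Bcl2l1 2.87, Pmaip1 1.16) and 1 lower (Bmf -1.81) with LPS in WT liver, among 67% of listed genes (20.6% higher and 46.4% lower). In TG2-KO liver 2 were higher (Bcl2l1 2.52, Bbc3 1.66) and none lower, among 32% of listed genes (14.8% higher and 17.2% lower). None of the 4 differed by 1 or more between LPS plus CTM and LPS (1.6% of listed genes did, 0.698% higher and 0.906% lower) or between TG2-KO and WT with LPS (6.3% did, 4.27% higher and 2.04% lower). TG2-KO libraries were extracted on a date of their own among 3, so genotype and extraction date cannot be told apart.

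Depletion of macrophages went with lower Bbc3 (log2 difference -1.26), the single member of 4 past 1, among 8.83% of listed genes (2.59% higher and 6.25% lower). The other differences were -0.87 for Pmaip1, -0.36 for Bcl2l1 and 0.82 for Bmf. Kupffer cell markers (5 of 6 listed, none at 0) summed to 84.3 TPM without and 13.1 TPM with depletion, and neutrophil markers (5 of 6 listed, none at 0) to 102 and 194 TPM. S100a8 (45.09 and 85.13 TPM) and S100a9 (45.05 and 95.02 TPM) made up most of the neutrophil sums. Mmp8 read 2.9 and 5.8 TPM and Retnlg 7.14 and 7.85 TPM, while Cxcr2 was lower with depletion (1.34 and 0.37 TPM). In WT LPS neutrophil markers summed to 68.7 TPM, and Retnlg was at 0 in WT PBS. The part of these cells in the member values was not tested.

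**Figure D5:**
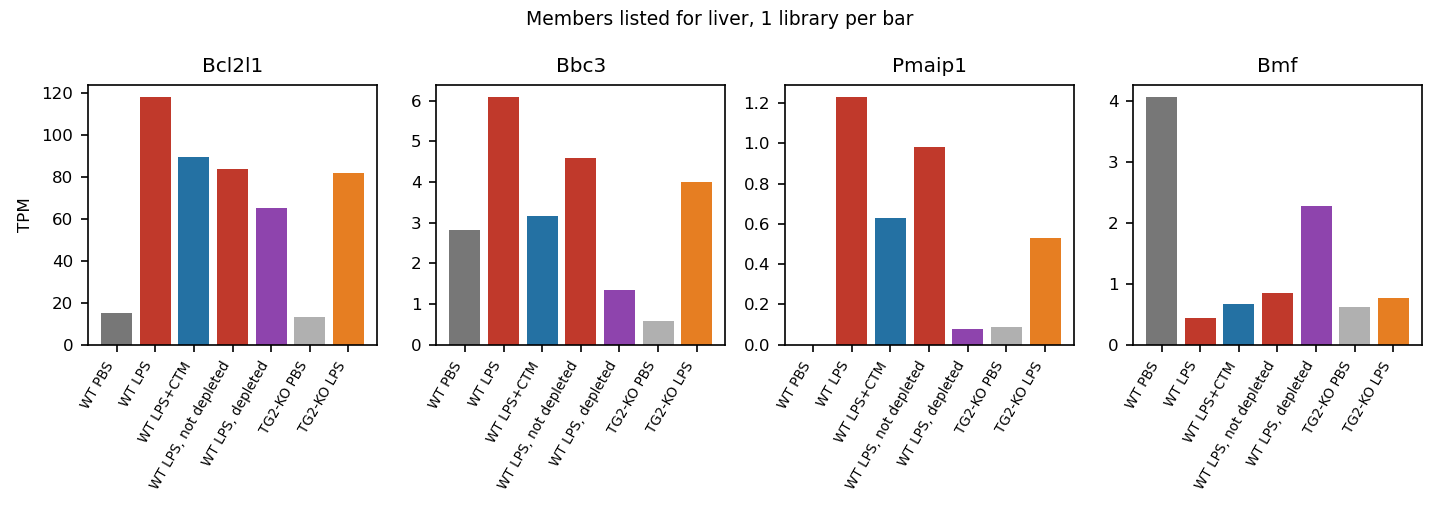
TPM of the 4 members listed for liver (1 bar per library, linear axes from 0, each panel with its own axis). Bcl2l1 is high in all 5 libraries with LPS, Bmf is highest in WT PBS, and Bbc3 and Pmaip1 are low in the depleted library.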

How the data were processed

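Total RNA of liver and RAW264.7 cells was made into libraries with a stranded mRNA kit, per the labels. The authors deposited gene-level TPM; the submitters' processing notes name Salmon and the builds mm10 and GRCm38, while versions and annotation are not given in the sources used here. TPM hold no counts, so depth and its counting error are unknown. Within groups the 2 libraries correlated at 0.986 to 0.990.

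Groups follow the labels. The LPS and CTM libraries of the 24 h experiment carry the numbers 2 and 3 in the tables but 1 and 2 in the labels. They were matched to a group only and go by the table's number. For the cell line, limma 3.58.1 in R 4.3.3 was run on log2(TPM + 1) for genes averaging 1 TPM or more in an experiment, with 1 model over all its groups, variances moderated along a trend, and p-values adjusted by Benjamini-Hochberg across every gene tested (threshold 0.05). For liver, differences of log2(TPM + 1) are given without a test. The model was also run on simulated data with independent normal noise and known changes. Such data cannot show how it does where libraries of a group are technical repeats. Promoters are from RefSeq (GRCm38.p6) and positions from a GENCODE annotation of GRCm38.

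The members and lists were chosen with earlier results of these data known. All 10 members are named, with up to 4 genes of each list that passed with the largest change and, for the widest-ranging member of an experiment, the 3 genes most like it among those averaging 5 TPM or more. One gene that this rule names is not reported here. Alternatives are given in the closing section. Tables were made with numpy 2.4.6 and pandas 2.3.3 and drawn with matplotlib 3.10.9.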

Additional observations from a re-analysis of the deposited data

Results flagged for a closer look

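The LPS change at 12 h differed between Vim-KO and WT cells for 7 members by the test of the difference itself (limma, adjusted p under 0.05). Of all genes tested 20.6% passed (13.7% higher and 6.96% lower). Under median-of-ratios scaling 4 members were higher and 1 lower. The difference, Vim-KO minus WT on the log2(TPM + 1) scale, was 2.65 for Bmf, 1.86 for Bcl2l11, 1.28 for Pmaip1, 1.18 for Bbc3, 0.55 for Mcl1, 0.40 for Bax and -0.69 for Bcl2l1. Of these, Mcl1 passed in 7 of 14 alternatives, Bax in 11 of 14 and Bbc3 in 4 of 14. The Vim-KO LPS libraries of Bbc3 read 24.3 and 12.6 TPM.

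In liver the LPS difference of Bmf was -1.81 in WT and 0.13 in TG2-KO mice, with 1 library per group. Only genes at least 2-fold apart in the WT contrast were listed, so a large WT value was a condition of being listed. The difference between genotypes was not tested. The TG2-KO PBS and LPS libraries read 0.61 and 0.76 TPM, both under the pseudocount of 1 TPM, so no direction can be read from them.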

How the results depend on the processing

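Of 882 alternative values of single members in the cell line, 804 kept their sign and side of the threshold, 48 lost the call, 12 gained one and 18 changed sign. Leaving out 1 library gave 8 to 9 members called for LPS against PBS at 24 h, 6 to 8 for CTM against LPS, 6 in each case for LPS plus CTM against PBS, 7 to 8 for LPS in WT and 5 to 7 in Vim-KO cells at 12 h, 5 to 6 for Vim-KO against WT with PBS (8 with all libraries), 6 to 8 with LPS, and 4 to 7 for the difference of responses. In such fits the lone library of a group is assumed to vary like the other groups. Median-of-ratios scaling turned Bcl2 (0.11) and Bak1 (0.039) for LPS at 24 h, Bak1 in WT (0.033) and Vim-KO cells (0.024), Bmf in Vim-KO cells (0.19) and Bak1 in the difference of responses (-0.0092). Leaving out 1 library changed the sign, over the ranges given, of Bax for CTM against LPS (-0.10 to 0.031), Bcl2 for LPS plus CTM against PBS (-0.044 to 0.059), Bbc3 (-0.16 to 0.73) and Bmf (-0.17 to 0.083) for LPS in Vim-KO cells, Bax with PBS between genotypes (-0.0099 to 0.033), Bbc3 with LPS between genotypes (-0.37 to 0.52) and Bid in the difference of responses (-0.046 to 0.027). Apart from Bak1 at 24 h and 12 h these had not passed with all libraries, and the cause was not tested. In liver, at 10 TPM or more in the higher library the counts were 1 for LPS in WT (3 before), 0 for depletion (1 before) and 1 for LPS in TG2-KO (2 before), since fewer members remain; with a pseudocount of 0.1 they were 4 for LPS in WT, 3 for LPS in TG2-KO, 3 for depletion and 1 for TG2-KO against WT with LPS (0 before).

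Libraries that share a replicate number did not deviate together (correlations of -0.219 to 0.098 over genes at 12 h, and -0.031 between LPS and CTM at 24 h), so no pairing by number was seen. With 2 libraries per group this check cannot tell whether libraries of the same number share a culture. With a replicate block 8 members passed for CTM against LPS, 8 for LPS in WT, 6 in Vim-KO cells, 8 and 6 between genotypes with PBS and LPS, and 7 for the difference of responses, each as without the block. For the 24 h comparisons with PBS no paired analysis was possible because that group shares fewer than 2 numbers with the others.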
